A study of Mus musculus with 4 samples.

Results

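Antigen presentation was followed through 10 genes of the class I and class II paths of the major histocompatibility complex (MHC), out of 19938 genes with a value. The members were chosen by name, and where a gene had more than 1 probe set, the brightest on average over the 4 arrays stood for it. All 10 had a value. The class II genes were Cd74, H2-Aa, H2-Ab1 and H2-Eb1, the class I genes were B2m, Tap1, Psmb8 and Psmb9, and the MHC transactivators were Ciita and Nlrc5.

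The RNA came from bone marrow cells of C57BL/6 mice that lacked CD45, CD31 and Ter119 on their surface and carried green fluorescent protein driven by the nestin promoter (Nes-gfp). The MPN group (myeloproliferative neoplasm) held 3 mice, whose genotype is given as Nes-gfp with Mx1-cre, an inducible recombinase, and a mutant JAK2. These mice had been transplanted with Mx1-cre marrow cells that carried the mutant JAK2. The control group held 1 mouse, a Nes-gfp animal transplanted with control marrow cells, and all mice were taken 10 weeks after transplantation. The labels used here give neither the age nor the sex of any mouse, and each array was taken as 1 mouse. With 1 control array, the spread between control mice is unknown.

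Class II molecules present peptides from endocytosed proteins to CD4 T cells, and they are made mainly by dendritic cells, macrophages and B cells. Their chains assemble with the invariant chain Cd74, and Ciita switches their genes on together. Class I molecules present peptides from the cell's own proteins and are made by nearly all nucleated cells. The immunoproteasome, which contains Psmb8 and Psmb9, cuts the peptides, the Tap1 transporter brings them into the endoplasmic reticulum, and B2m is the light chain of the finished molecule. Nlrc5 is the transactivator of the class I genes, and interferon gamma raises both sets of genes.

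The promoters of class II genes, and of B2m, carry a conserved pair of elements, the X box and the Y box. Windows from 250 bases before to 50 bases after the start site were given for 6 members (RefSeq, GRCm38.p6). 4 of them are shown, those of 2 class II genes, of B2m and of Tap1, whose window also covers most of that of Psmb9, so that the motif matches can be set beside the values below. Searched on both strands, the Y box core ATTGG was in 37.4% of all 32851 windows and the X box core AGCAAC in 14.8%. The interferon-stimulated response element GAAANNGAAA was in 3.44% of all windows and the gamma-activated site TTCNNNGAA in 8.3%. In the sequences below, capitals mark matches to these motifs.
H2-Aa at chr17:34287774-34288073, minus strand: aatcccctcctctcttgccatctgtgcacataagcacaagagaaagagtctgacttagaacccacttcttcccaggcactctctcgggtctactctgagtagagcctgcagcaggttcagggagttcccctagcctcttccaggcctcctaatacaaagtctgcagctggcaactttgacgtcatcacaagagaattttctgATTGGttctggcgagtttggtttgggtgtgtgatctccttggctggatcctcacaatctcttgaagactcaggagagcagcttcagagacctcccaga
H2-Eb1 at chr17:34305617-34305916, plus strand: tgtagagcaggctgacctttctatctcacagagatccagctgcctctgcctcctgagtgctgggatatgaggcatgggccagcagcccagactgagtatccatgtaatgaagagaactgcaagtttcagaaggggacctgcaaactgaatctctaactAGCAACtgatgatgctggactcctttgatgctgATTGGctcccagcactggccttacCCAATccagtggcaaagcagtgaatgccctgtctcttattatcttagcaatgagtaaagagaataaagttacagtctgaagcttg
B2m at chr2:122147437-122147736, plus strand: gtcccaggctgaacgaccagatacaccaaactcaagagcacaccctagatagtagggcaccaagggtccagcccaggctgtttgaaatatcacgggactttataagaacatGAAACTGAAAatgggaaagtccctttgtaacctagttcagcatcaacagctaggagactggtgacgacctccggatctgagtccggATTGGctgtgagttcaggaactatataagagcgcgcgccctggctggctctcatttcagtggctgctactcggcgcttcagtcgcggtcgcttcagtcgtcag
Tap1 at chr17:34187306-34187605, plus strand: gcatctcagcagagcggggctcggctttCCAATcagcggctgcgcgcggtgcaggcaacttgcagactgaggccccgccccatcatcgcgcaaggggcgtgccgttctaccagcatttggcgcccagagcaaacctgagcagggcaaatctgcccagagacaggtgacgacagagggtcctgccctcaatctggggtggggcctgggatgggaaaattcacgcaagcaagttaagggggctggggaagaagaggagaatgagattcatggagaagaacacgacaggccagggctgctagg

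The H2-Eb1 window held the X box core at -92 and the Y box core at -59 and, on the other strand, at -35 from the start site. H2-Aa held the Y box core at -48 and had no match to the X box core. B2m held the Y box core at -53 and the interferon-stimulated response element at -139. The Tap1 window overlaps that of Psmb9, which lies on the opposite strand, by 275 bases, and 225 bases lie between their start sites. The match in that overlap is a Y box core at -222 from the Tap1 start and at -8 from the Psmb9 start. The Psmb8 window had a match to the gamma-activated site at -97 and to none of the other motifs. These matches describe the letters only.

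Values are log2 expression from RMA (robust multi-array average), a method that puts the arrays on one distribution. A background limit of 5.21 was set at the 95th percentile of the mean level of 1192 olfactory and vomeronasal receptor genes. Tests were made with limma on all 19938 genes, two-sided, with Benjamini-Hochberg adjustment. The SEs and p-values rest on the spread among the 3 MPN arrays, which limma draws toward a typical spread estimated over all genes. That typical spread carried 1.39 degrees of freedom, beside 2 from the arrays. The median gene was higher by 0.18 on the MPN arrays (log2), and differences below should be read against that value.

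Genes of leukocytes, which the sort selected against, were higher on the MPN arrays. Of 15 pan-leukocyte genes, 11 were at least 2-fold higher on each MPN array. Their mean level was 9.18, 8.86 and 9.64 on the MPN arrays, against 6.77 on the control array. Of 14 mesenchymal stromal genes, 12 were at least 2-fold lower on each MPN array, with mean levels of 6.35, 5.67 and 6.40 against 9.21. Nes, whose promoter drives the reporter, was at 4.56, 3.92 and 4.26 in MPN mice against 4.26 in the control, under the background limit throughout. Xist, which coats the inactive X chromosome, was at 8.37, 9.31 and 9.22 in MPN mice against 3.30 in the control mouse, and Kdm5d of the Y chromosome was at 4.16, 4.16 and 4.14 against 7.72. The groups therefore differ in sex-linked RNA as well as in marrow, and these differences cannot be told apart from the group.

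None of the 10 members passed the adjusted threshold of 0.05, and neither did any other gene (0% of all genes, with 2511 at an unadjusted p under 0.05). At an unadjusted p under 0.05, 0 of 10 members were called, beside 3.97% of all genes higher and 8.63% lower in MPN. No member was at least 2-fold higher on each of the 3 MPN arrays, a mark that 1.13% of all genes reached, and none was 2-fold lower on each, as 5.78% of all genes were. In 4 of 10 members all 3 MPN mice lay above the control (46.8% of all genes), and in 3 of 10 all lay below it (21.1% of all genes). In the other members the control lay within the range of the MPN mice or level with one of them.

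**Figure D1:**
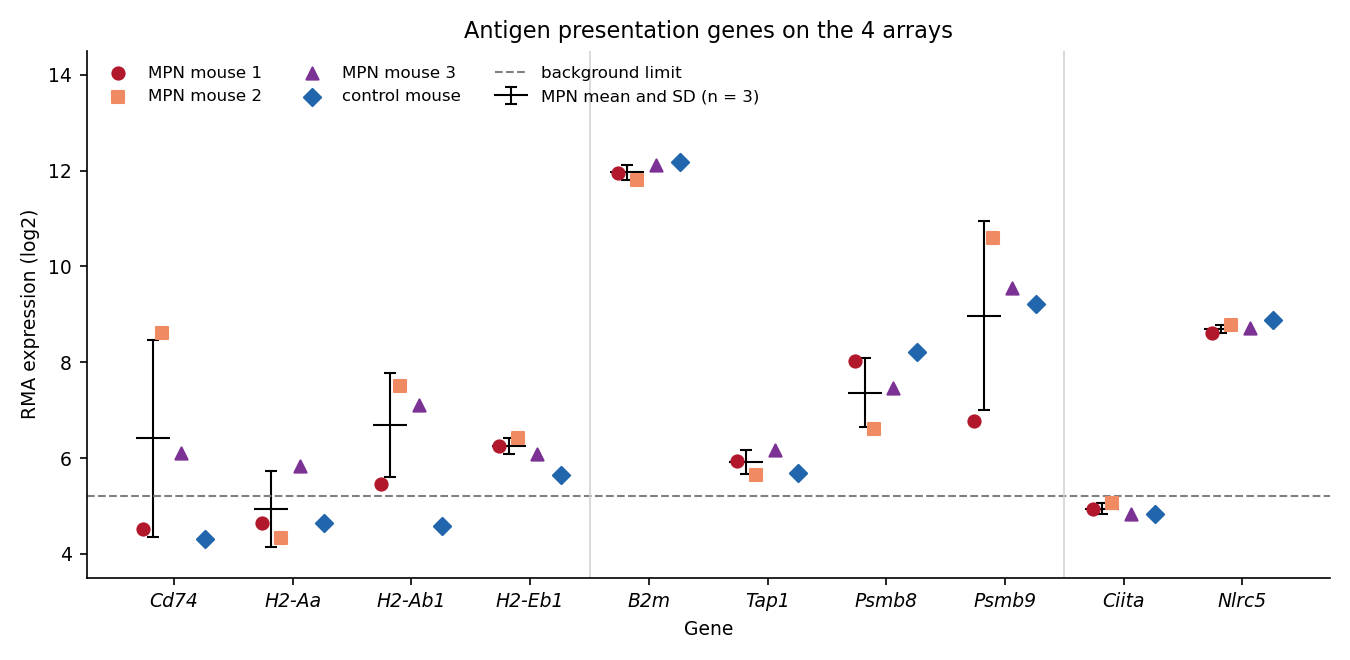
RMA expression (log2, vertical axis) of the 10 antigen presentation genes on each array, with the MPN mean and SD (n = 3, black bars) and the background limit of 5.21 (dashed line). Cd74 and Psmb9 spread over the widest range among the MPN mice, with SDs of 2.06 and 1.97, while B2m and Nlrc5 lie close together on all 4 arrays.

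Among the class II genes, Cd74 and H2-Ab1 were higher in MPN mice, by an amount that differed between animals. Cd74, the invariant chain that guides class II molecules to endosomes, was at 4.51, 8.60 and 6.11 in MPN mice 1, 2 and 3, against 4.31 in the control. MPN mouse 1 thus lay beside the control, under the background limit, and mice 2 and 3 lay clear of it. The mean difference was 2.10 (SE 1.83, limma adjusted p = 0.593), close to its own error. The MPN mean of 6.41 was 2.30-fold above the background limit, under which the control array lay. As MPN mouse 1 lay under the limit too, this fold is not a lower bound on the difference. Without MPN mouse 2 the difference was 1.01, and without MPN mouse 1 it was 3.05. The SD of Cd74 over the MPN mice (2.06) was higher than that of 99.0% of all genes.

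H2-Ab1, the beta chain of the I-A molecule, was at 5.47, 7.50 and 7.10 in MPN mice, against 4.58 in the control. All 3 MPN mice were above the control, and mouse 1 was again the lowest of them. The difference was 2.11 (SE 0.97, limma adjusted p = 0.446), and the MPN mean was 2.80-fold above the background limit. Without MPN mouse 1, Cd74 and H2-Ab1 were both at least 2-fold higher on each remaining MPN array, as were 1.90% of all genes in that setting. The 3 MPN mice stood in the same order for both genes, with mouse 2 highest.

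H2-Aa, the alpha chain that pairs with H2-Ab1, was at 4.64, 4.33 and 5.83 in MPN mice, against 4.64 in the control. Only MPN mouse 3 was above the background limit. MPN mouse 1 and the control held the same value to the last digit. Such ties also occur above background in these data, as for Nfyc at 6.10 in MPN mice 2 and 3 and the control. The difference was 0.29 (SE 0.72, limma adjusted p = 0.842), and it was -0.15 without MPN mouse 3. The values under the limit, in MPN mice 1 and 2 and the control, have no reliable order and were not compared with those of H2-Ab1.

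H2-Eb1 encodes the beta chain of the I-E molecule, which C57BL/6 mice do not display because their H2-Ea gene carries a deletion. It was at 6.25, 6.41 and 6.08 in MPN mice, against 5.65 in the control. All 4 values were above background and the MPN mice were close together, with an SD of 0.16. The difference of 0.60 (SE 0.20, limma adjusted p = 0.404) was the most even of the class II genes. It was 0.42 above the median gene. H2-Ea itself was at 4.00, 4.13 and 3.68 in MPN mice and 3.45 in the control, under the background limit on every array.

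The median difference of the 4 class II chain genes was 1.35, and per mouse it was 0.40, 1.84 and 1.50 over the control. Over all genes the median was 0.20, 0.21 and 0.08 for the same mice. MPN mouse 1 stood nearest to the control in this list.

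The cells that normally make class II were looked for through their markers. Ccr2, the chemokine receptor of inflammatory monocytes, was at 7.10, 9.96 and 8.46 in MPN mice, against 5.02 in the control. Ly86, a partner protein of the receptor Cd180 found on B cells and myeloid cells, was at 4.46, 10.39 and 8.59 in MPN mice, against 5.13 in the control. Both genes were lowest in MPN mouse 1 and highest in mouse 2, which is the order of Cd74 and H2-Ab1. They were the 2 of 8 monocyte and macrophage markers above background that stood in this order. Among the others, Cd68 was highest in mouse 3, at 6.11, 6.56 and 7.75 in MPN mice against 6.51, and Fcgr1 was highest in mouse 1, at 6.49, 5.49 and 5.31 against 5.24, both chosen after their values were seen. The differences were 3.49 (SE 1.28, limma adjusted p = 0.416) for Ccr2 and 2.68 (SE 2.70, adjusted p = 0.638) for Ly86. Of the 15 pan-leukocyte genes, 2 (Vav1 and Cd48) stood in the order of Cd74 and 5 in the opposite order. Of 6 B lineage markers above background, 1 (Vpreb1) stood in it and 1 in the opposite order. The share of all genes in this order was not counted, and a link to a cell type was not tested. Of 15 neutrophil markers, 12 were at least 2-fold higher on each MPN array, with mean levels of 10.36, 9.45 and 10.55 in MPN mice against 7.34 in the control. None of the 15 stood in the order of Cd74, 11 were highest in mouse 3, and 4 stood in the opposite order. One of those 4 was Ly6g, a neutrophil surface marker, at 8.59, 6.66 and 7.86 in MPN mice against 3.40 in the control. Ptprc, which encodes CD45, was at 10.16, 9.46 and 10.40 in MPN mice against 7.07.

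**Figure D2:**
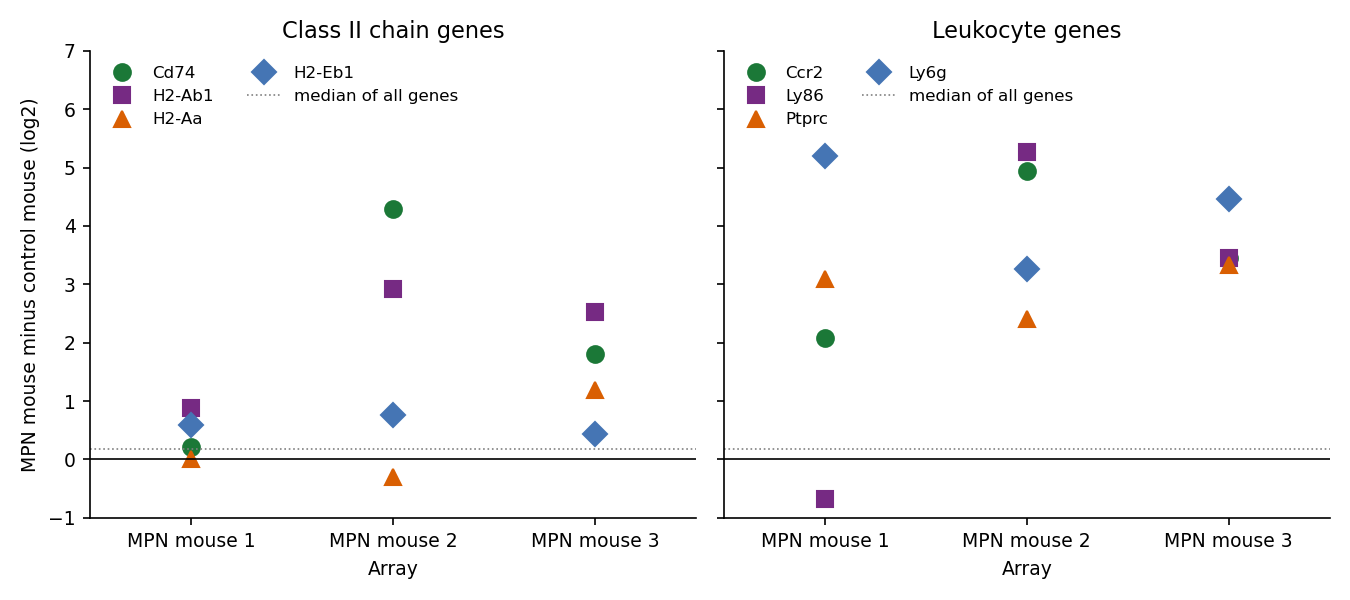
Difference of each MPN mouse from the control mouse (log2, vertical axis) for the class II chain genes and for 4 leukocyte genes. Cd74 and H2-Ab1 are highest in MPN mouse 2 and lowest in mouse 1, as are Ccr2 and Ly86. Of 8 monocyte and macrophage markers above background, these 2 alone stand in the order of Cd74. Ly6g is highest in mouse 1, as are 4 of 15 neutrophil markers in all, and 11 are highest in mouse 3.

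Of 15 monocyte and macrophage markers, 8 had a group mean above background, 5 were under the limit on every array and 1, Ccr2, was at least 2-fold higher on each MPN array. Their mean level was 5.09, 5.68 and 5.44 in MPN mice and 4.92 in the control. Mertk, a receptor for the uptake of dead cells, was lower in MPN mice, at 4.55, 4.58 and 4.48 against 6.79. Of 13 dendritic cell markers, 6 had a group mean above background, 5 were under the limit on every array and none was 2-fold apart on each, with mean levels of 5.13, 5.19 and 4.82 against 4.73. Zbtb46, a transcription factor of conventional dendritic cells, was at 5.58, 5.62 and 5.28 in MPN mice against 4.89, and Batf3 at 5.54, 5.67 and 5.08 against 4.98. Bst2, which interferon also raises in other cells, was at 8.47, 7.67 and 6.44 in MPN mice against 7.12.

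Of 14 B lineage markers, 6 were under the limit on every array, and their mean level was 5.15, 5.57 and 4.89 in MPN mice against 5.0 in the control. Vpreb1, part of the surrogate light chain of B cell precursors, was at 4.36, 11.26 and 4.80 in MPN mice against 9.64. It was thus high in MPN mouse 2 and in the control, where Cd74 was at 4.31. Cd79b, a chain of the B cell receptor, was at 6.09, 6.29 and 6.02 against 5.43, and Cd37, a leukocyte tetraspanin, at 8.12, 6.09 and 6.72 against 5.16. The part of these cells in the class II values was not tested, and in bulk RNA fewer cells of a type and less RNA per cell cannot be told apart.

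B2m, the class I light chain, was the steadiest of the class I genes. It was at 11.95, 11.81 and 12.12 in MPN mice, against 12.18 in the control. All 3 MPN mice were slightly below the control, with differences of -0.37 to -0.06 per mouse, and the mean difference was -0.22 (SE 0.20, limma adjusted p = 0.607). On the same arrays the pan-leukocyte genes had a median difference of 2.47 and the stromal genes one of -3.14. Whether the probes of B2m were near saturation could not be read from these values.

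Tap1, a chain of the peptide transporter, was at 5.95, 5.65 and 6.16 in MPN mice, against 5.69 in the control. The control lay within the range of the MPN mice, just above background, and the difference was 0.23 (SE 0.27, limma adjusted p = 0.685). Psmb9, whose start site lies on the opposite strand in the Tap1 window shown above, varied far more. It was at 6.77, 10.59 and 9.54 in MPN mice, against 9.21 in the control. MPN mouse 1 differed from the control by -2.44, while mice 2 and 3 lay above it by 1.38 and 0.33. The mean difference was therefore near 0, at -0.25 (SE 1.76, limma adjusted p = 0.948), and 0.85 without MPN mouse 1. The SD of Psmb9 over the MPN mice was 1.97 and that of Tap1 0.26, so that Psmb9 varied more than 98.8% of all genes and Tap1 more than 55.1%. Among genes above background these shares were 98.1% for Psmb9 and 43.8% for Tap1.

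Psmb8, the other immunoproteasome subunit among the members, ran the other way between mice. It was at 8.02, 6.60 and 7.47 in MPN mice, against 8.21 in the control. All 3 MPN mice lay below the control, and mouse 2, which had the highest Psmb9, had the lowest Psmb8. The difference was -0.85 (SE 0.65, limma adjusted p = 0.560), or -1.03 beside the median gene.

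The proteasome genes around them were uneven too. Psmb10, the third catalytic subunit of the immunoproteasome, was at 6.82, 7.50 and 7.50 in MPN mice, against 7.15 in the control. Psme1, a chain of the activator that caps the immunoproteasome, was at 9.78, 7.70 and 9.78 against 9.26, and its partner Psme2 was at 6.22, 7.20 and 7.30 against 6.95. The control lay within the range of the MPN mice for all 3 genes, whose differences ran from -0.17 to 0.13. Of the constitutive subunits that Psmb8, Psmb9 and Psmb10 replace, Psmb5 was at 7.39, 7.79 and 8.36 against 7.84. Psmb6 was at 9.68, 9.31 and 8.85 against 8.74, and Psmb7 at 9.67, 9.51 and 8.68 against 8.01. Psmb6 and Psmb7 were thus above the control in all 3 MPN mice, with differences of 0.54 (SE 0.40) and 1.27 (SE 0.49), and neither passed the test (limma adjusted p = 0.545 and 0.429).

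**Figure D3:**
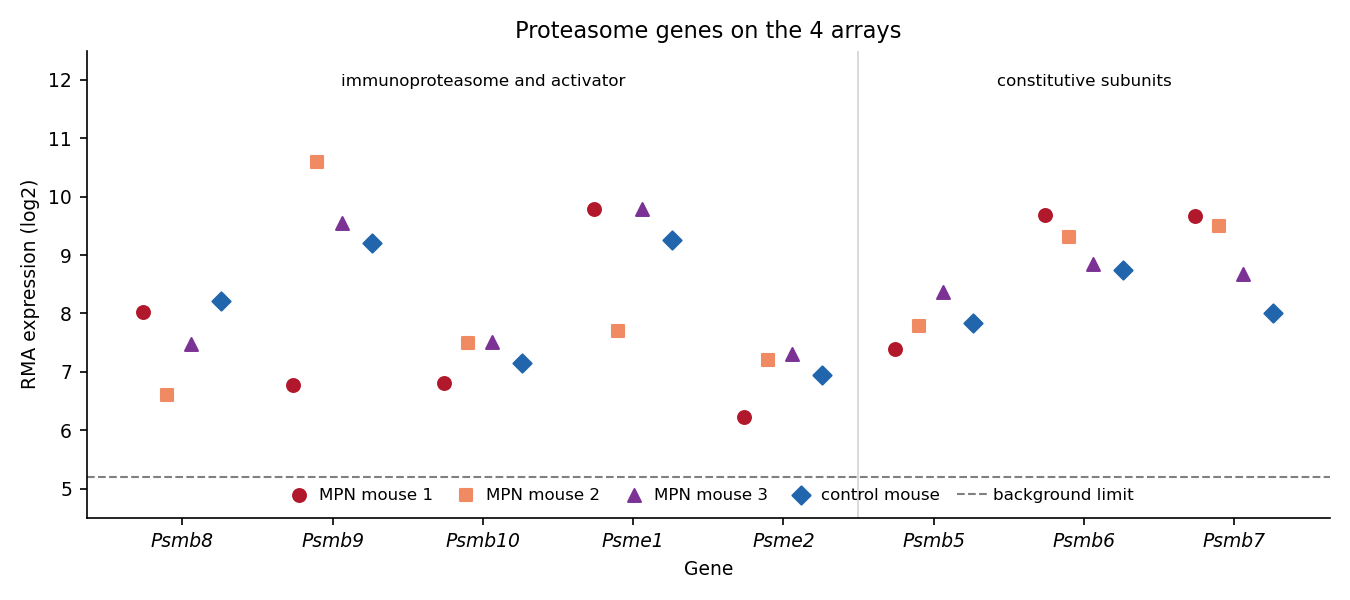
RMA expression (log2, vertical axis) of immunoproteasome and activator genes and of the constitutive subunits on each array, with the background limit as a dashed line. Psmb9 lies at 6.77 in MPN mouse 1 and 10.59 in mouse 2, and Psmb8 is lowest in mouse 2.

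Of 15 genes measured in the list of constitutive subunits and ring genes, none was 2-fold apart on each MPN array. The list holds Psme3, which encodes an activator chain and no ring subunit. Psmb3, a ring subunit, was at 7.58, 12.45 and 8.43 in MPN mice against 6.73, with an SE of 2.31 beside a difference of 2.76. Psmb3 has 2 probe sets, and their average gave a difference of 1.90. Psma4, another ring subunit, was at 6.83, 6.74 and 8.43 against 8.60. The wide spread between MPN mice was therefore not limited to the immunoproteasome. Of these 15 genes, 7 stood in the order of Cd74 and H2-Ab1, with mouse 2 highest and mouse 1 lowest. Psme3 is among the 7. For Psma2, also among them, this order rests on 8.5752 in MPN mouse 1 and 8.5755 in mouse 3. The share of all genes in this order was not counted.

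Ciita, the class II transactivator, was under the background limit on all 4 arrays. It was at 4.93, 5.06 and 4.84 in MPN mice, against 4.83 in the control, and the difference was 0.11 (SE 0.18, limma adjusted p = 0.752). MPN mouse 3 lay 0.01 above the control. The difference changed sign when cyclic loess was applied (-0.083) and when each array was centred on its receptor genes (-0.14). No level of Ciita above background was measured in MPN mouse 2, where Cd74 reached 8.60.

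Nlrc5, the class I transactivator, was at 8.61, 8.77 and 8.71 in MPN mice, against 8.89 in the control. All 3 MPN mice lay below the control, with differences of -0.28 to -0.12 per mouse, and the mean difference was -0.19 (SE 0.16, limma adjusted p = 0.586). It is the only member with several probe sets in this table. Of the 19 probe sets of Nlrc5, 14 had a mean above background, 12 were higher in MPN and 7 were lower, and their differences ran from -1.76 to 0.71 with a median of 0.15. The sign for Nlrc5 therefore depends on the probe set kept, although their mean also gave a difference below 0 (-0.01).

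In a further 69 genes of the path, listed by role, none passed the adjusted threshold. One gene (Ctss) was at least 2-fold higher on each MPN array, against 1.13% of all genes, and 4 (Ctsl, Sppl2a, Irf1 and Cxcl9) were 2-fold lower, against 5.78% of all genes. Of the 5 accessory class II genes measured, only H2-DMa was above background. H2-DMa, part of the molecule that exchanges peptides on class II, was at 6.93, 5.90 and 6.48 in MPN mice against 5.16, a difference of 1.27 (SE 0.48, limma adjusted p = 0.422). All 3 MPN mice were above the control, and here mouse 1 was the highest.

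The proteases that prepare class II peptides went both ways. Ctss, which trims the invariant chain in antigen-presenting cells, was at 7.52, 8.75 and 9.64 in MPN mice, against 6.41 in the control. Its difference was 2.23 (SE 0.95, limma adjusted p = 0.439), and mouse 1 was the lowest of the MPN mice as for Cd74. Ctsl, a cathepsin of thymic epithelium and many other cells, was at 8.24, 8.02 and 7.58 in MPN mice, against 10.02 in the control, a difference of -2.08 (SE 0.33, limma adjusted p = 0.174). Sppl2a, the membrane protease that clears the last fragment of Cd74, was at 6.97, 6.13 and 8.11 against 9.38, a difference of -2.31 (SE 0.90, limma adjusted p = 0.429).

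Of 18 genes in the class I heavy chain list, 9 had a value here. H2-K1 and H2-D1 were not among the 9, so the values below do not cover them. None of the 9 was 2-fold apart on each MPN array, and 1 of the 9, H2-Ke6, encodes a dehydrogenase and no heavy chain. Mr1, which presents vitamin metabolites, was at 5.03, 5.03 and 4.63 in MPN mice against 5.89, and H2-Q4 at 5.59, 4.77 and 5.19 against 6.04. H2-T24 was at 5.71, 6.07 and 5.75 against 5.04, a difference of 0.80 (SE 0.23, limma adjusted p = 0.341). Class I genes are close copies of each other, so their probes may share signal. Probe sets that carry several gene symbols were not used here. Of the loading genes, Pdia3 was at 9.54, 9.66 and 10.15 in MPN mice against 10.54, Calr had a difference of -0.29 and Tapbp one of 0.20, and the median of the 7 was -0.15.

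The genes of the interferon gamma path had the lowest median of the presentation lists, at -1.44 over 10 genes. Per mouse the median was -1.65, -1.75 and -0.31, so MPN mouse 3 stood nearest to the control. On each MPN array 6 of the 10 genes were lower than the control (21.1% of all genes) and 2 were higher (46.8% of all genes). Irf1, an early target of interferon gamma chosen here after its values were seen, and the chemokines Cxcl9 and Cxcl10 were lower in MPN mice. Irf1 was at 5.88, 5.88 and 6.21 in MPN mice, against 7.55 in the control. These values are from the brighter of its 2 probe sets, and the other is not given here. Cxcl9 was at 5.41, 5.68 and 5.07 against 7.78, and Cxcl10 at 5.46, 4.80 and 6.74 against 7.72. All of these MPN values lay below the control. Their differences were -1.56 (SE 0.22), -2.39 (SE 0.31) and -2.06 (SE 0.89), with limma adjusted p = 0.155, 0.138 and 0.439. The 2 genes that were higher on each MPN array, chosen after their values were seen, were Socs1, a feedback inhibitor of cytokine signals, and Irf8, a factor of myeloid and B cells. Socs1 was at 6.73, 6.36 and 6.03 in MPN mice against 5.47, and Irf8 at 5.99, 6.20 and 6.90 against 5.85, with differences of 0.90 (SE 0.34) and 0.51 (SE 0.45) and limma adjusted p = 0.422 and 0.596. Ifngr1, a chain of the receptor, was at 8.08, 5.13 and 9.03 in MPN mice against 9.32. The value of MPN mouse 2 lay under the background limit, and the difference was -1.90 (SE 1.81, limma adjusted p = 0.621). Pan-leukocyte genes were higher and stromal genes lower on the same arrays, by the values given above, and their part in these differences was not tested.

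The factors that bind MHC promoters had a median difference of -0.14 over 7 genes, and none was 2-fold apart on each MPN array. Nfyb, a subunit of the factor that binds the Y box, was at 4.72, 5.65 and 7.0 in MPN mice against 6.37, and Creb1 at 7.43, 8.32 and 9.01 against 8.54. Nfyc was at 5.51, 6.10 and 6.10 against 6.10. All 3 were lowest in MPN mouse 1. In the list of costimulation and turnover genes the median was 0.38 over 6 genes. Cd40, a costimulatory receptor, was at 6.29, 6.22 and 5.74 in MPN mice against 5.54, and Marchf1, a ubiquitin ligase that removes class II from the surface, was at 5.62, 5.10 and 5.16 against 4.80. Cd274, the ligand PD-L1, had a difference of 0.03.

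**Figure D4:**
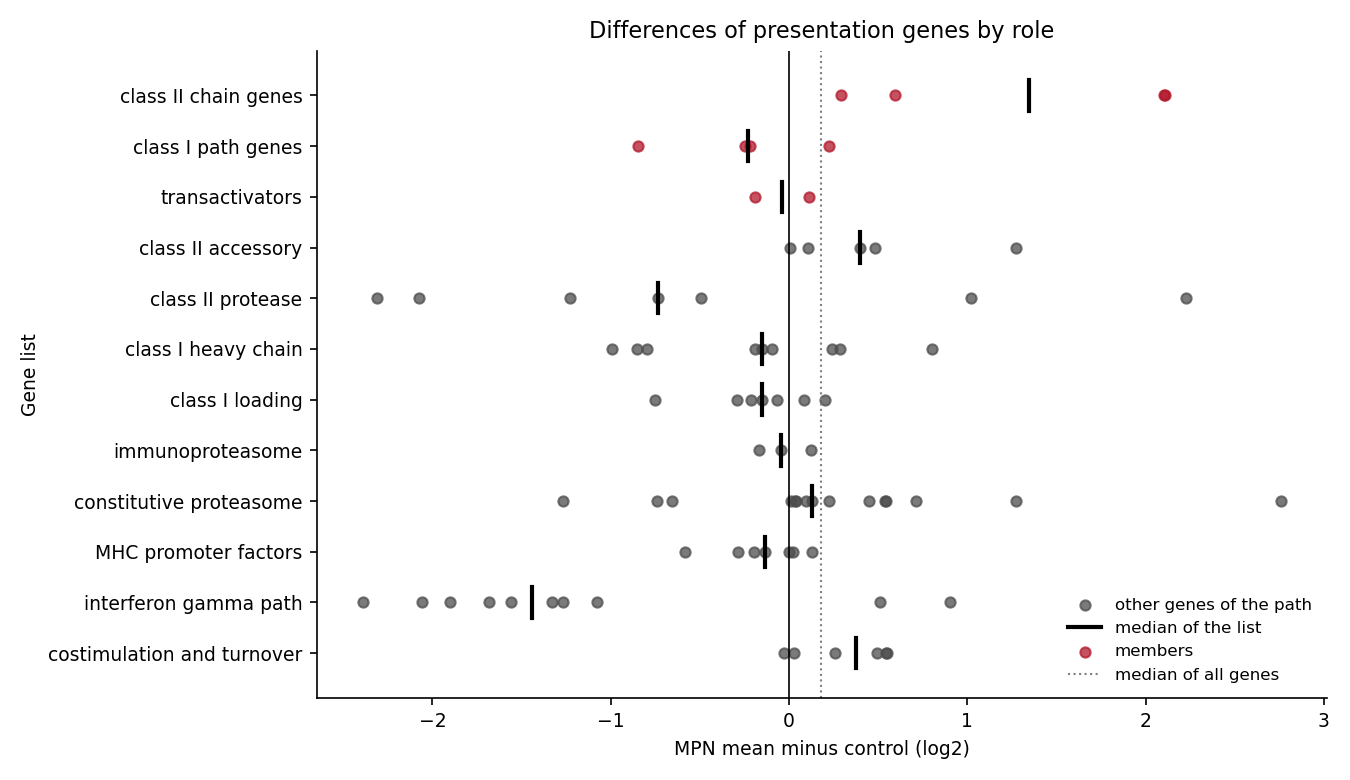
MPN mean minus control (log2, horizontal axis) for each measured gene of the path, with a row per list, a black bar at the list's median and a dotted line at the median of all genes (0.18). The class II chain genes have a median of 1.35 and the interferon gamma path genes one of -1.44.

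Genes outside the path were ranked by how close their values over the 4 arrays, after centring each gene on its own mean, came to the mean of the class II genes. Over 11897 genes above background, the 5 closest were Prxl2b, Setd3, Atox1, Vrk2 and Bloc1s2, at Euclidean distances of 0.19 to 0.32 (log2). Atox1, a copper chaperone, was at 8.40, 9.74 and 9.34 in MPN mice against 7.70. For the class I genes the closest were Ascc2, Ggnbp2, Trim33, Ahnak and Dpysl2, at distances of 0.06 to 0.10. With 4 arrays many genes share such a pattern. Among the members, Cd74 and H2-Ab1 were 1.69 apart by this measure, Cd74 and H2-Aa 3.77, and Tap1 and Psmb9 2.97.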

How the data were processed

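Gene expression was measured on Affymetrix MoGene 1.0 ST arrays in 3 MPN mice and 1 control mouse. Per the labels' protocols, RNA was isolated with a Picopure kit and labelled with biotin, and it was amplified with the NuGEN Ovation system per the design text. The authors computed the deposited log2 values with RMA, per the submitters' processing notes. The sources used here name neither its version nor the probe set definitions, and the genome build is not given in them. RMA compresses differences near background and forces the arrays onto one distribution. Arrays have no read depth, and their number limits the precision.

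Of 35556 probe sets, 21789 had 1 gene symbol, 1621 had several and 12146 are unnamed here. By gene identifier, 21698 were matched to RefSeq (GRCm38.p6). Keeping the probe set with the highest mean left 19938 genes. MPN was set against control with limma 3.58.1 (lmFit and eBayes, R 4.3.3) over all genes. All 2 residual degrees of freedom come from MPN arrays, so that the single control mouse is taken to vary as they do. In 134 genes the 3 MPN values were identical. The steps were tested on simulated data.

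The members, lists and tests were chosen with earlier results of these data known. Named genes are the 10 members, up to 3 genes above background with the largest difference of each list, Ptprc, Pecam1, Nes and Xist, and the 5 nearest patterns to each class. H2-Ea and others outside this rule are named to account for a count or a pairing. The alternatives left out each MPN mouse, averaged probe sets, kept genes above background, renormalised or shifted the arrays, changed the variance prior, or tested all probe sets.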

Additional observations from a re-analysis of the deposited data

How the results depend on the processing

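No paired analysis was possible because the control group holds 1 array. None of the 10 members passed the adjusted threshold under any alternative run, with adjusted p from 0.263 to 0.991. Cd74, H2-Ab1 and H2-Eb1 stayed higher, and B2m, Psmb8 and Nlrc5 stayed lower, in all 11 alternatives run for each. Some of these alternatives could not change a sign. Keeping genes above background, changing the variance prior and testing all probe sets left each difference as it was. Averaging probe sets did so for members with 1 probe set. The count of genes past the adjusted threshold was 0 as deposited and 0 without any 1 MPN mouse, but 97 after cyclic loess, 153 when each array was centred on its receptor genes and 167 with a trended, robust variance prior, and the cause was not tested. Members at least 2-fold higher on each MPN array numbered 0 to 2 when 1 MPN mouse was left out, and those 2-fold lower 0. The class II median ran from 0.80 to 1.66 without 1 mouse, and it was 2.10 among genes above background, where H2-Aa is not included. The class I median ran from -0.42 to -0.00088 without 1 mouse, and it was -0.52 after cyclic loess and -0.49 after the receptor gene shift.

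Signs that turned were those of genes whose difference over all arrays lay from -0.29 (Creb1) to 0.41 (Bst2). The median gene stood at 0.18. In some of these genes the MPN mice differed widely, with an SD of 1.97 for Psmb9 and 1.02 for Bst2. When 1 MPN mouse was left out, the difference ran from -1.06 to 0.85 for Psmb9, from -0.15 to 0.59 for H2-Aa, from -0.51 to 0.53 for Psme1 and from -0.24 to 0.29 for Psme2. It ran from -0.67 to 0.13 for Creb1, from -0.064 to 0.95 for Bst2, from -0.17 to 0.15 for Nes and from -0.19 to 0.15 for Cd274. The sign turned without mouse 1 for Psmb9, Psme2, Creb1, Bst2 and Cd274, without mouse 2 for Psme1 and Nes, and without mouse 3 for H2-Aa. Averaging probe sets turned Nfyc (0.19) and repeated quantile normalisation Psme2 (0.21). Cyclic loess turned Ciita (-0.083) and Cd274 (-0.15). The receptor gene shift turned Tap1 (-0.030), Ciita (-0.14), Tapbp (-0.057), Psmb10 (-0.13), Cd274 (-0.23) and Slc4a1 (-0.0059).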
